A study of Mus musculus with 18 samples.

Results

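The nuclear genes for the subunits of the mitochondrial oxidative phosphorylation complexes were followed in 18 mouse lung tumours. Members were the genes with a probe set of a single gene symbol that names a subunit of NADH dehydrogenase (symbols beginning Ndufa, Ndufb, Ndufc, Ndufs or Ndufv with a number), succinate dehydrogenase (Sdha to Sdhd), the cytochrome bc1 complex (Uqcr), cytochrome c oxidase (Cox4 to Cox8) or ATP synthase (Atp5). This gave 78 of 12394 genes on the array: 33 of complex I, 4 of complex II, 8 of complex III, 16 of complex IV and 17 of complex V. The complex was read from the symbol alone, which need not be the complex that holds the protein. They carried 147 probe sets, and where a gene had several, the one brightest on average was read. A gene was tested if at least 4 arrays showed it above their own median signal, which 73 of the 78 members did, among 7301 genes in all. The other 5 members stayed below the median of every array.

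The tumours came from 6 mice of strain C57/B6-129SvJae, aged 10 weeks, and RNA was taken from microdissected tissue. Treated animals had received tamoxifen in 2 intraperitoneal injections, and their tumours, collected on day 7 after the first, are labelled as p53 restored. The labels of untreated tumours do not mention restoration. The labels call grade 3 tumours adenocarcinomas and grade 2 tumours adenomas. The 6 treated grade 3 tumours all came from the female mouse 8688. The 4 treated grade 2 tumours came from the same mouse (3 tumours) and from the male mouse 8639 (1 tumour). The 4 untreated grade 3 tumours came from the male mice 8629 (2 tumours), 8584 (1) and 8565 (1), and the 4 untreated grade 2 tumours from the male mice 8700 (2) and 8565 (2). In grade 3 the effects of treatment, mouse and sex cannot be told apart, and in grade 2 only 1 treated tumour separates them in part. The alleles and transgenes of the mice are not named in the labels. Tumours of an animal are not independent, so p-values over tumours are too small even with the mouse in the fit.

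Oxidative phosphorylation couples the oxidation of NADH and succinate to the synthesis of ATP. Complexes I and II pass electrons to ubiquinone, complex III passes them to cytochrome c, complex IV reduces oxygen, and complex V (ATP synthase) uses the proton gradient that complexes I, III and IV build. Most subunits are encoded in the nucleus, a few hydrophobic ones in mitochondrial DNA. In tumours the pathway is usually read beside glycolysis, the other main source of ATP, and p53 is known to act on both through several of its target genes.

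Of 10 markers of lung tumour epithelium on the array, 9 lay above the median on all 18 arrays. Hbb-b2, a haemoglobin gene and the only one of 4 erythroid genes above the median on any array, was the only marker that passed for treatment: it fell by 3.09 in grade 3 and by 3.00 in grade 2 on the log2 scale (limma, adjusted p = 0.00123 and 0.00256). All 8 endothelial markers were above 0 for treatment in grade 3, with a median of 0.41 and none passing. Their part in the subunit values was not tested. RNA quality differed in 2 treated tumours: the 3′ probe sets of actin exceeded the 5′ ones by 3.07 in 8688T3 and by 2.17 in 8639T4, against 0.74 to 1.18 in the other tumours. Both tumours are named below at some, but not all, of the values where they are extreme.

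No subunit gene passed the test in any of the 5 comparisons, and for most of them the fitted 95% intervals lay inside a 2-fold change. These intervals come from the same fit as the p-values, so they are too narrow for the same reason. In grade 3 they also cannot separate treatment from mouse and sex. In the comparison of treated with untreated grade 3 tumours 0 of 73 genes passed, beside 34 of 7301 genes overall (0.466%). For treatment in grade 2 the count was 0 of 73 beside 0.0685% of all genes, for grade in untreated tumours 0 of 73 beside 0.178%, and for grade in treated tumours and for the interaction of treatment and grade 0 of 73 beside 0% of all genes (limma, Benjamini-Hochberg over all genes tested, threshold 0.05). At an unadjusted p under 0.05 the subunit genes numbered 2, 0, 3, 0 and 4 in these comparisons, and all genes 645, 510, 910, 141 and 665. The 95% interval of the fitted difference lay inside a 2-fold change either way for 71 of 73 genes for treatment in grade 3, for 71 in grade 2, for 72 for grade in untreated tumours and for all 73 for grade in treated tumours. The genes outside it were Cox6a2 and Cox6b2 in both treatment comparisons and Cox6a2 in the comparison of grade. For the interaction the interval was inside for 66 genes, and the exceptions were Cox5b, Cox6a2, Cox6b2, Cox6c, Cox7a2, Ndufb11 and Sdhc.

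The members were abundant and varied little. The median of their mean log2 signals was 10.77, against 8.83 for all genes tested, and each of 71 genes had a standard deviation over the 18 tumours under 0.35. The median standard deviation was 0.20 for the members and 0.240 for all genes tested. Among genes with a mean of at least 10 it was 0.205 for 50 members and 0.210 for 2068 genes. The steadiest member was Ndufs1, the large iron-sulphur subunit of complex I, which ran from 10.07 to 10.33 (SD 0.07, n = 18). Cox6a2 (SD 1.02) and Cox6b2 (SD 0.59) stood apart at the other end. The highest mean signals were those of Ndufs3 (11.17) among the core subunits of complex I, Ndufc1 (12.20) among the accessory ones, Sdhd (11.37), Uqcrb (12.75), Cox7a2 (12.32) and Atp5pb (12.09). The lowest among tested genes were those of Ndufv1 (9.39), Ndufa6 (7.81), Sdhc (9.27), Uqcrq (8.0), Cox7c (7.2) and Atp5g2 (8.87). Probe sets differ in brightness, so this is no order of the transcripts.

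**Figure D1:**
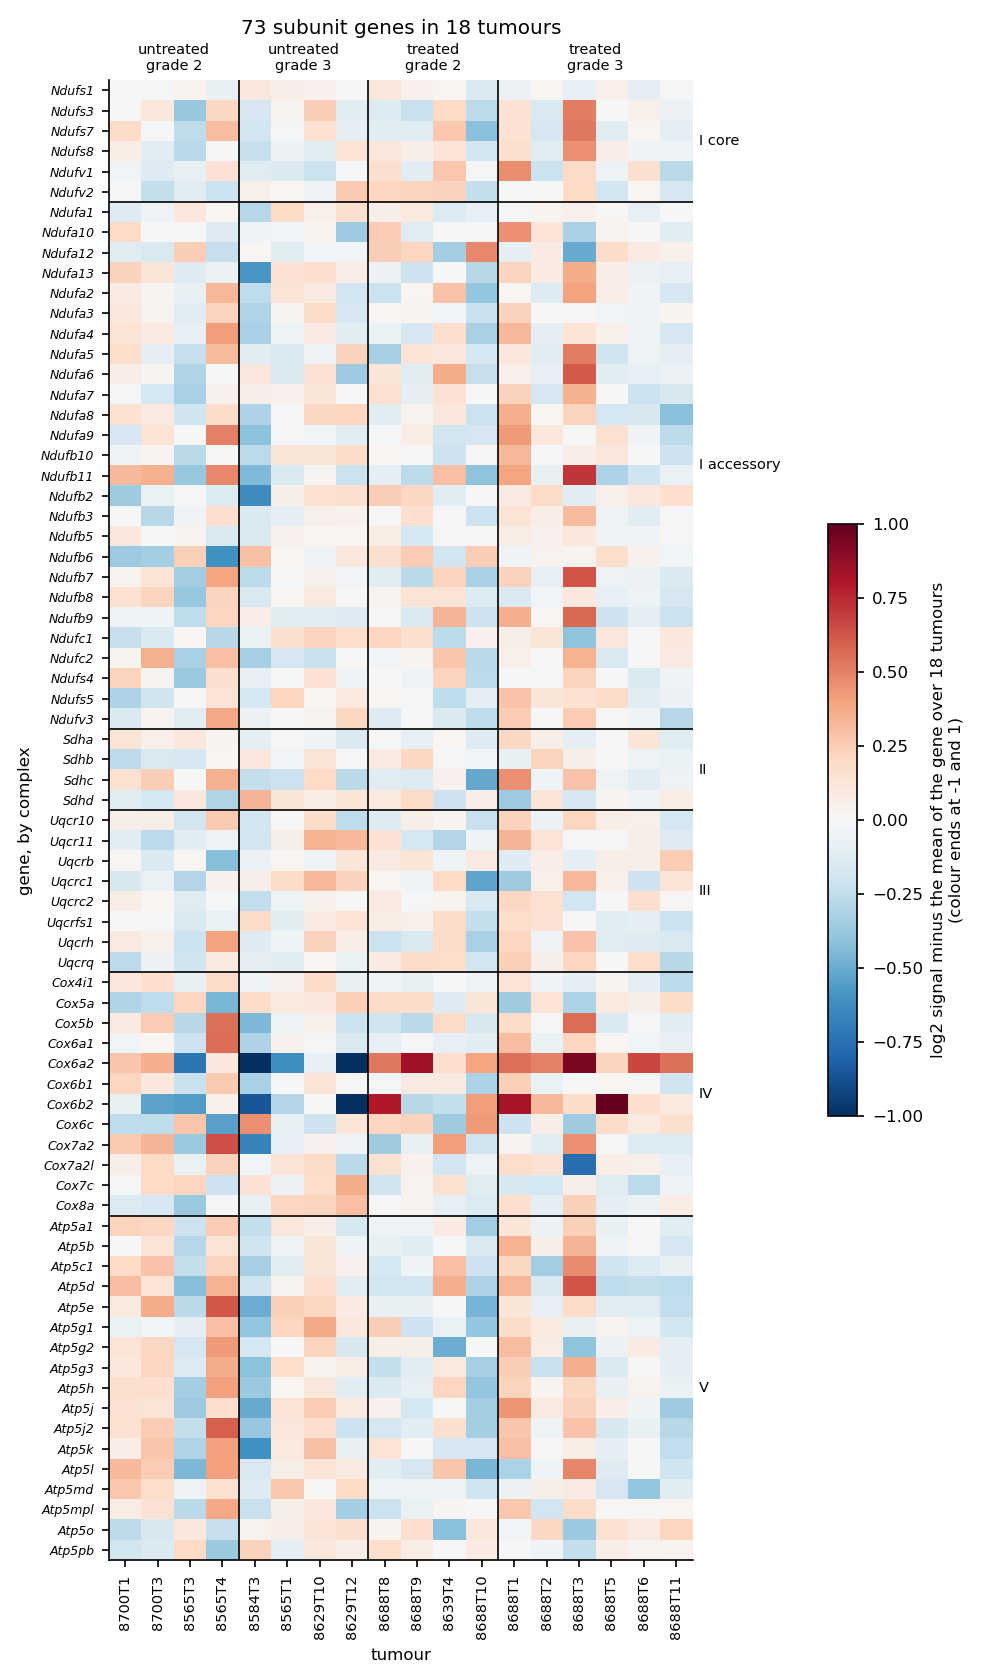
Log2 signal of the 73 subunit genes tested (rows, by complex) in the 18 tumours (columns, by group), each gene minus its mean over the tumours; red is above and blue below that mean, and the colour ends at -1 and 1. Single tumours such as 8565T4, 8584T3 and 8688T3 carry whole columns of colour that cross the complexes, and Cox6a2 and Cox6b2 are the rows with the strongest colour.

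The largest treatment differences among the members were in isoforms of complex IV that are best known from other tissues. Cox6a2 encodes the heart and skeletal muscle isoform of subunit 6A (chr7:128205435-128206366, GRCm38.p6), and its partner Cox6a1 the isoform found in most tissues. In the 4 untreated grade 3 tumours Cox6a2 had log2 signals of 8.07 (8584T3), 8.78 (8565T1), 9.31 (8629T10) and 6.02 (8629T12). In the 6 treated grade 3 tumours it ran from 9.62 to 10.34 (8688T3, with the 3′ excess given above) with a median of 9.95. The groups did not overlap, and the untreated tumours were spread over more than 3 log2 units, with 8629T12 below the median of its own array. The fitted difference was 1.76 (SE 0.58, 95% interval 0.53 to 2.99, limma adjusted p = 0.259), higher in the treated tumours. Without 8629T12 it was 1.11 (adjusted p = 0.199), and with no mouse term it was 1.92 and passed (adjusted p = 0.0177), in a fit that called 3.73% of all genes.

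Cox6b2 encodes the testis isoform of subunit 6B (chr7:4751792-4753094, GRCm38.p6), beside the general isoform gene Cox6b1. Its untreated grade 3 signals were 6.92 (8584T3), 7.48 (8565T1), 7.78 (8629T10) and 6.58 (8629T12), and the treated ones ran from 7.87 to 8.91 with a median of 8.02. These groups did not overlap either, but the highest untreated and the lowest treated tumour were close. The fitted difference was 0.94 (SE 0.37, 95% interval 0.16 to 1.71, adjusted p = 0.409), and with no mouse term it was 1.04 and passed (adjusted p = 0.0392). With sex as a covariate it was 0.48, and the sex term of that fit rests on 8639T4, the only male treated tumour. Over all genes tested, groups without overlap and higher in the treated grade 3 tumours made up 2.84%, and lower ones 2.08%. Among the 73 members these counts were 2 and 0.

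In grade 2 tumours the same pair of isoforms overlapped between groups. Cox6a2 signals were 9.67, 9.76, 8.67 and 9.50 untreated (8700T1, 8700T3, 8565T3, 8565T4) and 9.92, 10.24, 9.56 and 9.79 treated (8688T8, 8688T9, 8639T4, 8688T10), fitted at 0.55 (SE 0.60, adjusted p = 0.882). Cox6b2 signals were 7.69, 7.23, 7.21 and 7.82 untreated and 8.57, 7.49, 7.53 and 8.19 treated in the same order, fitted at 0.45 (SE 0.38, adjusted p = 0.849). The interaction, which is the treatment difference in grade 3 minus that in grade 2, did not pass for either gene. It was 1.21 for Cox6a2 (SE 0.68, adjusted p = 0.571) and 0.49 for Cox6b2 (SE 0.43, adjusted p = 0.712). Untreated grade 3 tumours had the lowest mean of both genes: Cox6a2 averaged 8.05 ± 1.44 (SD, n = 4) there, 9.40 ± 0.50 in untreated grade 2 (n = 4), 9.88 ± 0.28 in treated grade 2 (n = 4) and 9.97 ± 0.23 in treated grade 3 (n = 6).

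For the general isoforms the treatment values were smaller. Cox6a1 ran from 11.68 to 12.04 in untreated and from 11.92 to 12.30 in treated grade 3 tumours (fitted difference 0.18, SE 0.17, adjusted p = 0.782), and Cox6b1 from 11.64 to 12.09 and from 11.76 to 12.20 (0.08, SE 0.16, adjusted p = 0.888). The difference between isoforms was not tested. Of 20 genes that mark heart and skeletal muscle, 15 lay above the median on no array, among them Ckm, Tnni3, Myl2, Acta1 and Mb. Their summed signal (log2 of the sum) ran from 9.08 to 10.55 in untreated and from 9.75 to 10.80 in treated grade 3 tumours, and from 10.28 to 11.21 and from 10.08 to 10.38 in grade 2. The sum is of unlogged signals, so the brightest genes of the list weigh most in it. Myh7, which reached the highest value of the list, lay above the median in all 18 tumours, at 8.42 to 10.67. Actc1 did so on 4 arrays, with 9.45 in 8565T4 as its highest value. Myh7 was at 0.61 for treatment in grade 3 (SE 0.36, adjusted p = 0.645) and at -0.89 for grade in untreated tumours (SE 0.33, adjusted p = 0.289). For treatment in grade 2 it was at -0.45 (SE 0.37, adjusted p = 0.844). Actc1, the other muscle marker tested, was at -0.92 for treatment in grade 3 and at -1.78 in grade 2. For grade in untreated tumours Actc1 was at -1.90 (SE 1.25), and neither marker passed in these comparisons. The part of muscle cells in the Cox6a2 values was not tested. The remaining isoform genes of complex IV had log2 signals of 11.56 to 12.01 (Cox4i1), 11.65 to 12.96 (Cox7a2) and 11.40 to 12.39 (Cox7a2l) over the 18 tumours, and none passed. The other tissue isoform genes stayed dark: Cox7a1 (3.91 to 5.20), Cox8b (2.90 to 3.37), Cox8c (2.71 to 3.22), and Cox4i2 (up to 5.47), the lung and hypoxia isoform of subunit 4, stayed below the array median in every tumour, and so did the complex I gene Ndufb1 (3.16 to 3.59). A low probe set can also be a poor probe, so this gives no level for the transcript.

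**Figure D2:**
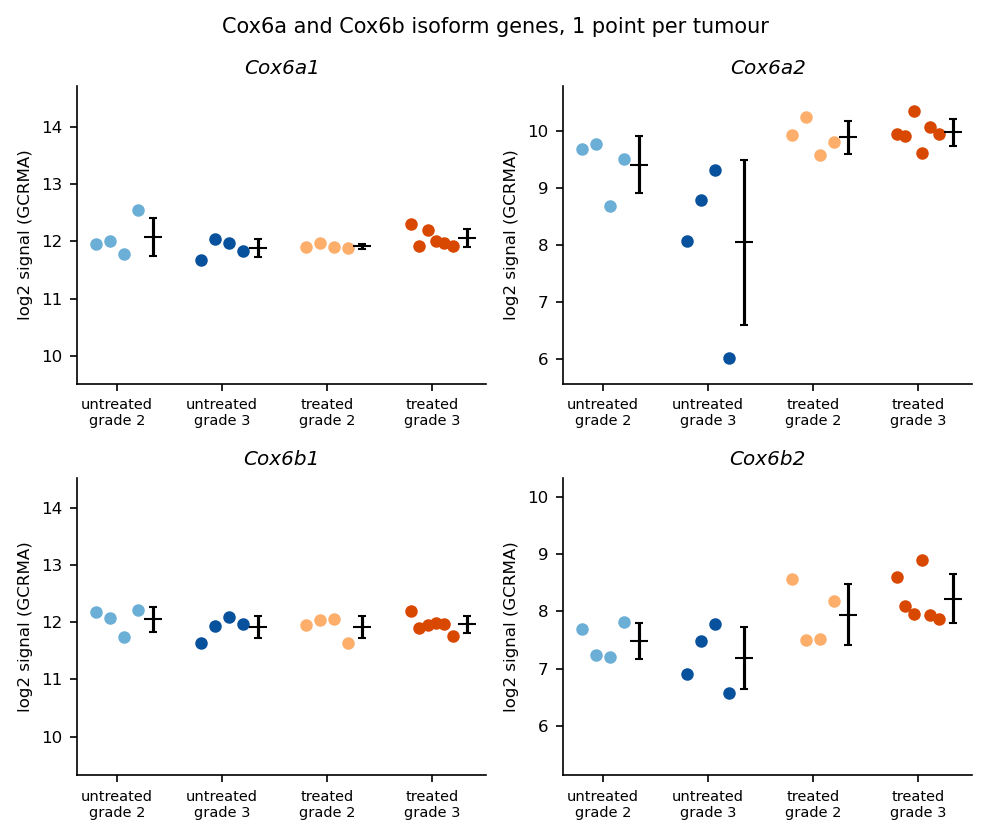
Log2 signal of Cox6a1, Cox6a2, Cox6b1 and Cox6b2 (y axes of equal span) by group, 1 point per tumour, with the mean and SD of the group as black bars. Cox6a2 in untreated grade 3 tumours runs from 6.02 to 9.31, below all 6 treated grade 3 tumours, while Cox6a1 and Cox6b1 overlap in all 4 groups.

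Promoter sequences were compared for Cox6a1, Cox6b1 and Cox6b2. The promoter of Cox6a2 was not analysed here. NRF1 and ETS family factors are known regulators of nuclear respiratory genes, so the letters GCGCANGCG (NRF1) and CCGGAAG (ETS) were searched on both strands of the 250 bases before the first listed start of each gene in the RefSeq promoter table (GRCm38.p6). Of the 78 genes, 64 matched by symbol. The NRF1 letters were found in 10 of them (15.6%), against 5.33% of 27025 promoters, and the ETS letters in 11 (17.2%), against 7.05%. Cox6a1, Atp5l, Sdhd and Atp5h held both. TATAAA was found in 9.38% of the members and 13.0% of all promoters, CCAAT in 40.6% and 34.5%, and GGGCGG in 35.9% and 32.9%. The 200 bases before the start are shown for both subunit 6B isoforms and for Cox6a1, because the values of these isoforms are set side by side above. Capitals mark the NRF1 and ETS letters, of which the first NRF1 run in Cox6a1 holds overlapping matches on both strands, and all 3 genes lie on the minus strand.
Cox6a1 (chr5:115348959-115349158): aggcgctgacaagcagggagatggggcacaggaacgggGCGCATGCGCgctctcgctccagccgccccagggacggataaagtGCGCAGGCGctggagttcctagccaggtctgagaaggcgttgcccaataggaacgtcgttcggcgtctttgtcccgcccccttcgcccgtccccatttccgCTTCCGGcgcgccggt
Cox6b1 (chr7:30626115-30626314): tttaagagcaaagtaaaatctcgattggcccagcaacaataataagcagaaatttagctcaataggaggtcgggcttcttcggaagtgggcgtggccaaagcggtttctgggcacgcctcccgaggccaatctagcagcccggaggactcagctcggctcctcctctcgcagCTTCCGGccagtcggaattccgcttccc
Cox6b2 (chr7:4753095-4753294): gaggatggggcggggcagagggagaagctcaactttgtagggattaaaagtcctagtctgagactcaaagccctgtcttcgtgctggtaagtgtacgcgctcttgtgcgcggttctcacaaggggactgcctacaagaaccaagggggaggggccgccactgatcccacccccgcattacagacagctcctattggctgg
The window of Cox6a1 held the NRF1 and ETS letters, that of Cox6b1 the ETS letters, and that of Cox6b2 neither. A match of letters is a description of the window and says nothing about binding.

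Treatment in grade 3 gave small differences of both signs. Of the 73 genes 45 were above 0, beside 4155 of all 7301 genes, with a median of 0.10 against 0.04 for all genes tested. Complex I core subunits, which carry the flavin and the iron-sulphur clusters, had a median of 0.16 (4 of 6 above 0), accessory subunits 0.10 (18 of 26), complex II 0.03 (2 of 4), complex III 0.03 (4 of 8) and complex V 0.10 (11 of 17). Complex IV had a median of 0.003 (6 of 12 above 0), and without Cox6a2 and Cox6b2 it had -0.10 (4 of 10 above 0). Among the core subunits of complex I the smallest p-values belonged to Ndufv1, the NADH-binding subunit (0.22, SE 0.18, adjusted p = 0.733), and Ndufs8 (0.17), and among the accessory ones to Ndufc2 (0.29) and Ndufb11 (0.36), all with overlapping groups. In complex II Sdhd, a membrane anchor, was at -0.28 (SE 0.15) and Sdhc, the other anchor, at 0.27 (SE 0.19). In complex III the smallest p-values were those of the core protein gene Uqcrc2 (0.13) and of Uqcrq (0.17), and in complex V those of Atp5h (0.22), the d subunit, and Atp5md (-0.19). The median over members rests on 1 tumour: without 8584T3, the only tumour of its mouse, it was -0.02.

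Treatment in grade 2 gave a median of -0.07 over the 73 genes, against 0.02 for all genes tested. Of the 73 genes 33 were above 0, beside 3933 of all 7301 genes. Complex V was the lowest at -0.14, and 15 of its 17 genes were below 0. The exceptions were Atp5pb (0.17) and Atp5o (0.06), which encode the stalk subunits b and OSCP. These signs were those of the probe set used: the second probe set of each, above the median on all 18 arrays, differed in plain group means (treated minus untreated) by -0.33 for Atp5pb and -0.40 for Atp5o. Among the genes below 0 were those for the catalytic subunits alpha and beta, Atp5a1 (-0.16) and Atp5b (-0.07), and all 3 genes of the proton-carrying c ring, Atp5g1 (-0.11), Atp5g2 (-0.28, SE 0.20) and Atp5g3 (-0.23). Atp5e, the epsilon subunit, had the largest difference of the complex (-0.31, SE 0.23, adjusted p = 0.839). None of these passed. In the other complexes the smallest p-values belonged to Ndufv2 (0.27, SE 0.15), an iron-sulphur subunit of complex I, Ndufb6 (0.33, SE 0.18), Ndufb2 (0.23), Sdhc (-0.35, SE 0.19), Sdhb (0.18), Uqcrb (0.19), Uqcrq (0.18) and Cox5a (0.25). The median over all members was 0.05 with sex as a covariate and 0.02 without 8565T4, so its sign depended on the fit. With sex in the fit, the treatment difference in grade 2 rests on 8639T4, the only male treated tumour, set against the untreated ones. The RNA quality of 8639T4 differed, as given above. With array weights 28 members passed, among 27.1% of all genes, and Atp5e, Ndufv2, Ndufb6, Ndufb2, Sdhb, Sdhc, Uqcrb and Cox5a were among them.

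Markers of several cell types differed in the same direction as complex V. Of 9 tumour epithelium markers 7 were below 0 for treatment in grade 2 (median -0.25), 7 were below 0 for grade in untreated tumours (-0.17), all 9 were above 0 for grade in treated tumours (0.16), and 8 were above 0 for the interaction (0.26). For treatment in grade 2 all 4 tested markers of T and NK cells (median -0.52), all 3 of B and plasma cells (-0.61) and all 3 of smooth muscle (-0.94) were also below 0. Not all lists did so: 4 of 8 macrophage markers were above 0 (median -0.03), and so was the only fat marker tested (0.23). None of these markers passed, and their part in the complex V values was not tested.

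Without overlap between groups, treatment in grade 2 left 1 member, Sdha, beside 4.04% of all genes higher and 4.04% lower in the treated tumours. Sdha, the flavoprotein of complex II, was 11.49, 11.42, 11.49 and 11.40 in the untreated tumours and 11.36, 11.29, 11.39 and 11.24 in the treated ones. The treated tumours were all lower, with the groups nearly touching (fitted difference -0.11, SE 0.11, adjusted p = 0.868). Its second probe set differed by 0.19 the other way in plain group means.

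For grade in untreated tumours (grade 3 minus grade 2) complex V had a median of -0.14, with 14 of 17 genes below 0. Over all members the median was -0.05, with 29 of 73 above 0, beside -0.0005 and 3641 of 7301 for all genes tested. The sign of this median over members depended on the fit. It was 0.017 with mouse as a fixed block, and leaving out single tumours it ran from -0.14 to 0.04. The comparisons share the untreated grade 2 tumours, in which 8565T4 carried high complex V signals, so their signs are not independent. The smallest p-value belonged to Cox8a, the general isoform of subunit 8: 8.55, 8.52, 8.32 and 8.67 in grade 2 and 8.62, 8.90, 8.91 and 8.99 in grade 3, fitted at 0.34 (SE 0.12, adjusted p = 0.281), with the groups overlapping at 1 tumour each. Cox6a2 was lower in grade 3 in the fit, at -1.16 (SE 0.53, adjusted p = 0.377), with overlap. Uqcrc1, a core protein of complex III, was higher in all 4 grade 3 tumours (8.65, 8.78, 8.93 and 8.83 against 8.43, 8.52, 8.30 and 8.64), fitted at 0.31 (SE 0.17, adjusted p = 0.468). The lowest grade 3 tumour and the highest grade 2 tumour were nearly level. Sdha was lower in all 4 (-0.14, SE 0.10, adjusted p = 0.567), but its second probe set differed by 0.02 the other way in plain group means. Ndufb6 (0.34, SE 0.16), Ndufc1 (0.28), Sdhd (0.28) and Uqcr11 (0.23) were also above 0, with overlap. Of all genes, 3.42% lay wholly higher and 3.03% wholly lower in grade 3; of the members 1 each.

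Markers of other cell types differed in this comparison. Fbln1, a fibroblast gene, fell by 1.95 (adjusted p = 0.0248), and it was the only one of 7 tested fibroblast genes to pass. All 8 endothelial markers were below 0, with a median of -0.64 and none passing. Summed endothelial signal ran from 10.72 to 11.62 in grade 3 and from 11.39 to 12.30 in grade 2 untreated tumours, and fibroblast signal from 13.16 to 13.63 and from 13.41 to 13.95. Their part in the subunit values was not tested. In bulk tissue, fewer cells of a type and less RNA per cell cannot be told apart.

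Between the grades of treated tumours (grade 3 minus grade 2), every subunit gene had its 95% interval inside a 2-fold change. The median over members was 0.08, with 51 of 73 above 0, and complex V had 0.13 with 15 of 17 above 0. Over all genes tested the median was 0.02, with 4052 of 7301 above 0. No member's groups were without overlap, beside 0.397% of all genes higher and 0.384% lower in grade 3. The smallest p-values were those of Sdhc (0.29, SE 0.14), a membrane anchor of complex II, and Ndufa13 (0.26, SE 0.13), an accessory subunit of complex I, each with an adjusted p of 0.997. For Sdhc the second probe set, above the median on all 18 arrays, differed by -0.02 in plain group means, against 0.26 for the one used. In complex V Atp5b (0.19) and Atp5g3 (0.20) had the smallest p-values, and among the core subunits of complex I Ndufs3 (0.22) had the smallest.

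The interaction asks whether the treatment difference was larger in grade 3 than in grade 2. Its median over members was 0.12, with 48 of 73 above 0, and 0.02 over all genes, with 3855 of 7301 above 0. In complex V it was 0.22, with 14 of 17 above 0. The 4 members with an unadjusted p under 0.05 lay on both sides. Sdhc was at 0.63 (SE 0.22, 95% interval 0.16 to 1.09) and the other anchor gene of the same complex, Sdhd, at -0.40 (SE 0.18). Cox5a was at -0.48 (SE 0.22) and Ndufb6, an accessory subunit of complex I, at -0.45 (SE 0.21), each of the 4 with an adjusted p of 0.539. Sdhc signals were 9.42, 9.51, 9.27 and 9.62 in untreated grade 2, 9.03, 9.05, 9.47 and 9.0 in untreated grade 3, 9.15, 9.13, 9.31 and 8.76 in treated grade 2, and 9.73, 9.23, 9.56, 9.22, 9.15 and 9.22 in treated grade 3 tumours. The highest untreated grade 3 value, 8629T10, was far from the other 3, and the groups overlapped in both grades. In the second probe set of Sdhc, plain group means (treated minus untreated) differed by 0.03 in grade 3 and by -0.09 in grade 2. For the probe set used these values were 0.21 and -0.37.

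**Figure D3:**
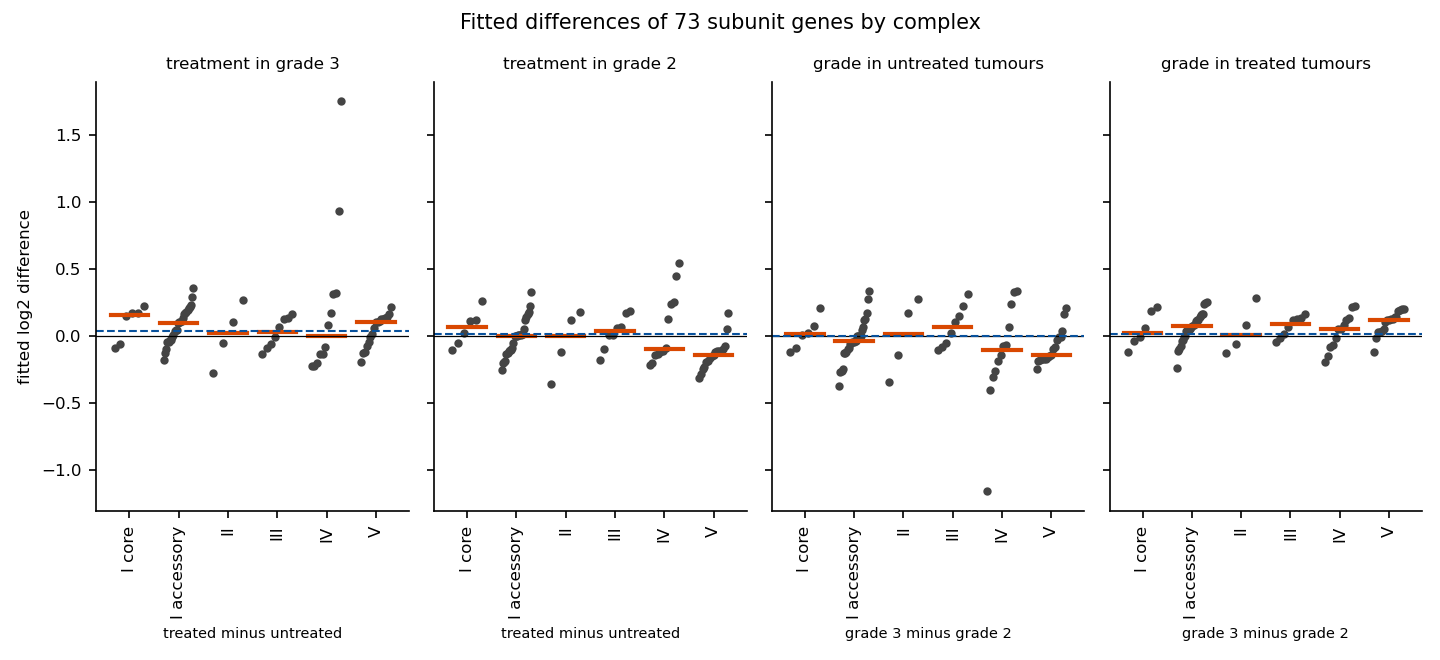
Fitted log2 differences of the 73 subunit genes (points, sorted within a complex) for treatment (treated minus untreated) in each grade and for grade (grade 3 minus grade 2) in untreated and treated tumours. Orange bars are medians of a complex and the dashed blue line is the median of all 7301 genes tested; apart from Cox6a2 and Cox6b2 in complex IV the points lie within 0.5 of 0.

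Tumours of a group differed about as much as tumours in general: the median standard deviation of a member was 0.20 within groups and 0.20 over all 18 tumours. In complex V the mean log2 signal over its 17 genes was 11.01, 11.06, 10.69 and 11.17 in untreated grade 2 tumours, 10.64, 10.98, 11.06 and 10.88 in untreated grade 3, 10.86, 10.84, 10.92 and 10.67 in treated grade 2, and 11.08, 10.87, 11.06, 10.83, 10.86 and 10.77 in treated grade 3. The lowest and the highest of these were both untreated tumours, and all groups overlapped. Complex II ran between 10.27 and 10.51 over the 18 tumours. The core subunits of complex I ran from 10.19 (8688T10) to 10.70 (8688T3), both in mouse 8688.

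**Figure D4:**
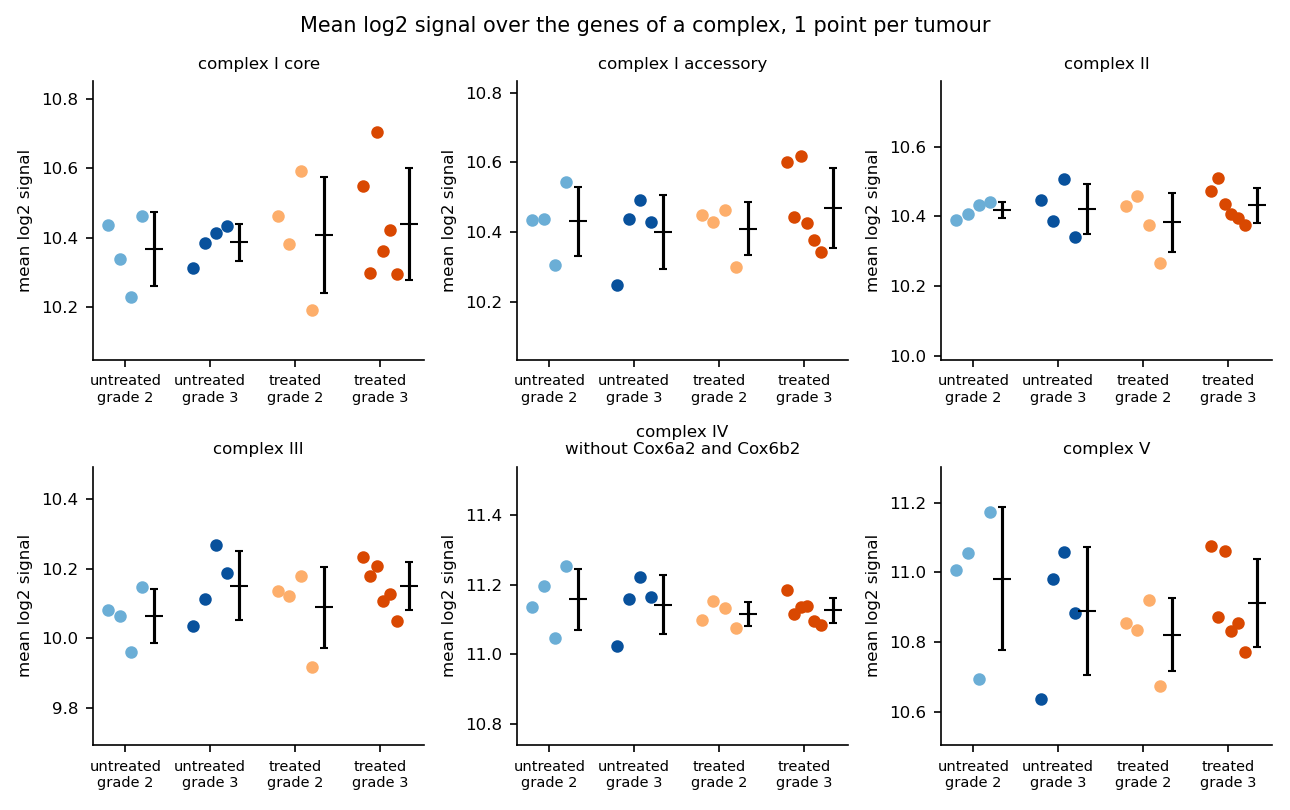
Mean log2 signal over the tested genes of each complex by group, 1 point per tumour. Black bars are the mean and SD of the group, and the y axes cover 0.8 log2 units each. Complex IV is drawn without Cox6a2 and Cox6b2. With both genes its mean was 10.55 in untreated and 10.79 in treated grade 3 tumours, against 11.14 and 11.13 without them. Every complex overlaps in all 4 groups, and in complex V the tumours run from 10.64 to 11.17.

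A few tumours held most of the extreme values. Of the 73 genes, 18 had their highest value in 8565T4, 18 in 8688T3 and 12 in 8688T1, which is 24.7%, 24.7% and 16.4%, beside 11.3%, 12.2% and 8.52% of all genes tested. The lowest values lay mostly in 8584T3 (19 genes, 26.0% beside 17.8% of all genes), 8565T3 (11, 15.1% beside 8.20%) and 8688T10 (10, 13.7% beside 8.20%). Of these, 8688T3 is the tumour with the largest 3′ excess; the others lay within the usual range. The 18 genes highest in 8688T3 included the core subunits Ndufs3, Ndufs7 and Ndufs8.

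**Figure D5:**
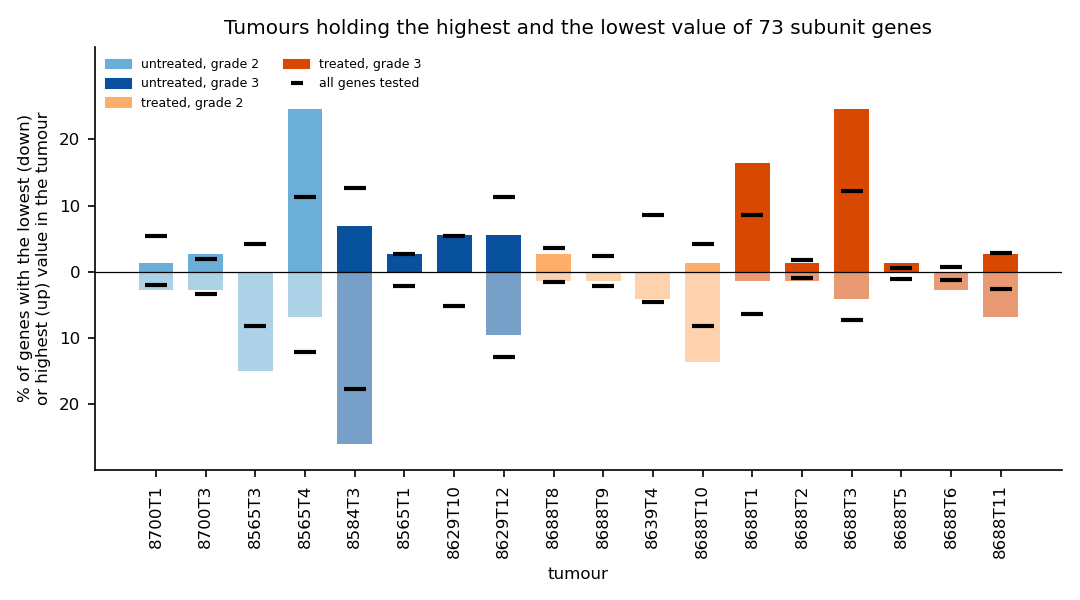
Percent of the 73 subunit genes with their highest (bars up) and lowest (bars down) value in each of 18 tumours, coloured by group, with the same percent over all 7301 genes tested as black marks. Tumours 8565T4 and 8688T3 hold 24.7% of the highest values each and 8584T3 holds 26.0% of the lowest.

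The tumours 8565T4 and 8565T3 were both untreated grade 2 tumours of mouse 8565, and they stood at opposite ends of the member values. They were picked after their values were seen, so the following is a description. Of the 73 genes 56 were higher in 8565T4 (76.7%, beside 57.4% of all genes), with a median difference of 0.36 beside 0.08. In complex V 15 of 17 were higher, with a median of 0.53, up to 0.90 for Atp5e. Cox7a2 differed the most, by 1.02. Against 8584T3, the untreated grade 3 tumour with the most low values, 54 of 73 were higher in 8565T4, with a median of 0.37.

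A smaller set of members ran the other way, and for several of them another probe set of the gene disagreed. Cox6c, Ndufb6 and Atp5pb were highest in 8584T3 and lowest in 8565T4, while 9 genes, among them Cox6a1, Cox6b1, Cox7a2, Atp5e and Atp5g3, were highest in 8565T4 and lowest in 8584T3. The probe set used for Cox6c was lower by 0.82 in 8565T4 than in 8565T3, but the second one was higher by 0.35. For Atp5pb the pair of probe sets differed by -0.57 and 0.61, for Atp5o by -0.33 and 0.80, and for Sdhd by -0.41 and 0.32. Cox5a has 3 probe sets, of which the one used and another were lower in 8565T4, at -0.68 and -0.62, while the remaining one was higher by 0.54. For Ndufb6 and Uqcrb the second probe set differed little between these tumours (0.01 and -0.03), and that of Ndufb6 was lower in 8565T4 than in 8584T3, at -0.34 beside -0.90 for the one used. All of these probe sets were above the array median in all 18 tumours. Over the members, 55 second or further probe sets met that mark, and the sign of their plain difference was that of the probe set used for 40 in the treatment comparison of grade 3, 39 in that of grade 2, 34 for grade in untreated tumours and 38 in treated ones. The signs of Cox5a, Atp5pb, Atp5o, Cox6c and Sdhd above belong to the probe set used.

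In the lists of partners, regulators and neighbouring pathways no gene passed in any comparison. Among partners outside the symbol rule, Cycs, which encodes cytochrome c, had an interaction of -1.31 (SE 0.49, adjusted p = 0.539). It was lower in 8565T4 (10.46) than in 8565T3 (11.92). Of 28 assembly factors, 20 were above 0 for treatment in each grade, with medians of 0.08 in grade 3 and 0.12 in grade 2. Over all 7301 genes tested 4155 and 3933 were above 0, with medians of 0.04 and 0.02. Cox18, which inserts a complex IV subunit into the membrane, was higher in all 4 treated grade 2 tumours (6.28, 6.37, 6.57 and 6.09 against 5.74, 5.72, 5.95 and 5.87), fitted at 0.55 (SE 0.14, adjusted p = 0.267). Ndufaf4, a complex I assembly factor, differed by 0.53 (SE 0.17, adjusted p = 0.446).

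Of 15 citric acid cycle genes, 8 were above 0 for treatment in grade 3 and 9 in grade 2, and Cs, citrate synthase, had an interaction of 0.69 (SE 0.25, adjusted p = 0.539). The 72 mitochondrial ribosomal genes had medians of 0.01 in grade 3 (41 above 0) and 0.05 in grade 2 (44 above 0). Of 11 regulators of mitochondrial biogenesis, Polrmt, the mitochondrial RNA polymerase, had an interaction of -0.65 (SE 0.22) and Polg, the mitochondrial DNA polymerase, of 0.52 (SE 0.20), each with an adjusted p of 0.539. Mpc1, a subunit of the pyruvate carrier, was higher in all 6 treated grade 3 tumours (10.28 to 10.60) than in the 4 untreated ones (9.56 to 10.07), fitted at 0.53 (SE 0.17, adjusted p = 0.253).

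Import genes had a median of 0.19 for treatment in grade 2, with 17 of 18 above 0, and of 0.02 in grade 3, with no gene passing for the interaction. Glycolysis, set beside the complexes, had medians of -0.09 in grade 3 (5 of 15 above 0) and 0.20 in grade 2 (12 of 15). Pgk1, an ATP-producing glycolytic enzyme, had an interaction of -0.91 (SE 0.26, adjusted p = 0.539). Of 7 genes that link p53 to metabolism, 5 were above 0 in grade 3 and 6 in grade 2, with medians of 0.33 and 0.22. Lpin1, a phosphatidate phosphatase, was higher in all 4 treated grade 2 tumours (8.19 to 8.68) than in the untreated ones (7.51 to 7.83), fitted at 0.74 (SE 0.22, adjusted p = 0.386). Rrm2b, a p53-inducible ribonucleotide reductase subunit, was lower in grade 3 than in grade 2 untreated tumours (-0.40, SE 0.12, adjusted p = 0.182), without overlap.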

How the data were processed

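Total RNA (100 ng) from 18 microdissected mouse lung tumours was amplified, biotin-labelled and hybridised to 1-colour arrays, per the labels' protocols. The values deposited for each probe set are log2 signals, and the submitters' processing notes list GCRMA 2.20.0 and R 2.11.0. GCRMA adjusts for probe sequence and brings arrays to a common distribution, so a shift of all genes together cannot be seen. Array medians ran from 6.05 to 6.18 and correlations between arrays from 0.974 to 0.997. The number of arrays limits precision.

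Of 22690 probe sets, 20393 with 1 gene symbol were used, and 7 member probe sets with several symbols were left out. Tests covered genes that exceeded the median signal on 4 or more arrays. limma 3.58.1 in R 4.3.3 fitted 4 group means to all 18 tumours with mouse as a random block (correlation 0.259, 14 residual and 3.80 prior degrees of freedom), tested on simulated data. The fit weights tumours by mouse, so its differences are not plain differences of means. P-values were adjusted by Benjamini-Hochberg over 7301 genes, with a threshold of 0.05. Members per complex were described by counts and medians.

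Members and lists were chosen with earlier results of these data known. Genes were named if they passed, were among the 2 smallest p-values of a complex or list, were tissue isoforms, c ring genes or dark on every array, or had the highest or lowest mean of a complex. Others, such as those of the comparison of tumours within mouse 8565, were picked after their values were seen. Alternatives varied the mouse term, sex, normalisation, filter, probe set choice and array weights and left out tumours or mice. Leaving out mouse 8639, and the mouse as a fixed block for the interaction, were added after seeing the data.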

Additional observations from a re-analysis of the deposited data

Results flagged for a closer look

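Among 188 sets of a named gene or a complex mean and a group, 9 had 1 tumour far from the rest of its group by Dixon's criterion, and chance gives about 1 in 20. In treated grade 2 tumours 8688T10 was low for Atp5e (10.56), Atp5md (8.77) and Ndufv2 (10.53), and 8639T4 was low for Atp5g2 (8.38). In treated grade 3 tumours 8688T3 was low for Atp5pb (11.85) and Ndufc1 (11.80). In untreated grade 3 tumours 8584T3 was low for Ndufa13 (10.66) and Ndufb2 (7.82), and 8629T10 was high for Sdhc (9.47). The 3′ excess of 8688T3 and 8639T4 was given above, and its part in these values was not tested.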

How the results depend on the processing

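The cause of the changes below was not tested. Across alternatives no member passed for the interaction or for grade in treated tumours. With no mouse term 2 members (Cox6a2, Cox6b2) passed for treatment in grade 3, among 3.73% of all genes. With array weights 1, 28 and 7 members passed for treatment in grade 3, treatment in grade 2 and grade in untreated tumours, among 5.12%, 27.1% and 11.6% of all genes. The median over members for treatment in grade 3 was -0.023 with array weights and -0.019 without mouse 8584, and leaving out single tumours it ran from -0.019 to 0.14. For treatment in grade 2 it was 0.048 with sex as a covariate, and -0.16 to 0.02 leaving out single tumours. In grade 2 the fit with sex sets 8639T4, the only male treated tumour, against the untreated ones.

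Of 66 pairs of a named gene and a comparison, most kept their sign. Using no probe sets ending in _x_at, _s_at or _a_at where a gene has another turned the sign of Uqcrq (-0.078) for treatment in grade 3, of Ndufv2 (-0.037), Uqcrb (-0.023) and Cox5a (-0.17) for treatment in grade 2, of Ndufs7 (-0.16), Ndufv2 (0.15), Uqcr10 (-0.13), Cox5a (0.20), Cox5b (-0.11) and Atp5pb (0.36) for the interaction, of Ndufc1 (-0.094), Ndufv2 (-0.031), Sdhd (-0.050) and Atp5pb (-0.23) for grade in untreated tumours, and of Ndufa12 (0.081) and Cox6c (0.21) for grade in treated tumours. The mean of all probe sets turned Uqcrq (-0.020) for treatment in grade 3, Atp5pb for the interaction (0.041) and for grade in untreated tumours (-0.032), and Cox6c (0.0077) for grade in treated tumours. For grade in untreated tumours, array weights turned Cox6b2 (0.051) and mouse as a fixed block Atp5pb (-0.012). For grade in treated tumours, means per mouse turned Cox6c (0.025), and Cox6a2, near 0 in the main fit, was -0.016 with mouse as a fixed block, with sex as a covariate and without 8639T4 or its mouse, -0.13 with array weights, -0.030 without 8688T3 and -0.090 without 8688T3 and 8639T4, and leaving out single tumours it ran from -0.030 to 0.179. Grades can be paired within mice 8688 (treated) and 8565 (untreated). With mouse as a fixed block no member passed for either grade comparison, and the median over members was 0.017 in untreated and 0.096 in treated tumours. Treatment could not be paired, since no mouse carried both treated and untreated tumours.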

Other observations

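Probe sets that list several symbols were named for no gene, yet 5 of the 7 that include a subunit gene gave clear signal. The probe set of Ndufs5 and its pseudogene averaged 10.05 ± 0.15 (SD, n = 6) in treated and 9.82 ± 0.32 (n = 4) in untreated grade 3 tumours. The brighter of the pair shared by Ndufb4, Ndufb4b and Ndufb4c had 10.67 ± 0.16 and 10.62 ± 0.05, that of Ndufa11 and Ndufa11b 9.30 ± 0.08 and 9.35 ± 0.15, and that of Ndufs6 and Ndufs6b 9.62 ± 0.12 and 9.47 ± 0.11. In grade 2 the treated and untreated means (n = 4 each) were 9.80 and 9.89 for the Ndufs5 probe set and 10.67 and 10.80 for that of Ndufb4. They were 9.20 and 9.14 for that of Ndufa11 and 9.58 and 9.65 for that of Ndufs6. The probe sets of Ndufa13 with Yjefn3 and of Ndufb2 with Adck2 stayed under 4 in every tumour. No test was made on them.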
